A study of Mus musculus with 6 samples.

Results

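The genes described here are 10 regulators and markers of the epithelial-mesenchymal transition (EMT), out of 24190 gene identifiers in the count table. They were given by name, and the Ensembl identifiers of the table were matched to GENCODE mouse symbols, which found all 10. Snai1, Snai2, Zeb1, Zeb2 and Twist1 encode transcription factors that drive EMT. Vim, Cdh2 and Fn1 are mesenchymal markers, and Esrp1 and Ovol1 encode epithelial factors that oppose EMT. RNA was sequenced from MTO54, a mouse colorectal cancer organoid line that the labels call AKP and parental, the background shared by all 6 samples. Single cells were seeded in basement membrane extract, and 2 days later 3 samples received fresh complete stem cell medium (control) and 3 received the same medium with Folfiri, here 5FU at 50 μg/μl as the labels write it plus SN38 at 100 nM, for 2 days. The comparison asks how this drug pair, an inhibitor of thymidylate synthesis with a topoisomerase I inhibitor, changed these genes. The treatment time is that of the labels, and a figure legend of the study gives a longer one. The study describes the samples as biological replicates. All came from 1 organoid line, and the labels do not say how the cultures were kept apart, so p-values measure the spread between samples of that line.

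In EMT, epithelial cells loosen their junctions and take on a migratory state. SNAI and ZEB proteins are zinc finger repressors that bind E-box sequences in the promoters of junction genes such as Cdh1, and TWIST1 is a basic helix-loop-helix factor that acts on many of the same genes. ESRP1 keeps the splicing pattern of epithelial cells and OVOL1 represses Zeb1, so both hold cells in the epithelial state. Vimentin, N-cadherin (Cdh2) and fibronectin (Fn1) are the filament, adhesion and matrix proteins by which mesenchymal cells are usually recognised, and colorectal tumour cells often express only some of the program, a state called partial EMT.

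The libraries held 22103591 to 30098210 counts, and the floor of 3 counts stood at 0.0910 to 0.154 CPM (the usual library-scaled count of a gene, here with TMM-normalized library sizes). Replicates differed beyond sampling noise, and control replicate 1 stood further from the other controls (chi-square per degree of freedom of 23.7 and 22.4) than these did from each other (3.84). Folfiri replicate 3 likewise stood further from the other Folfiri samples (12.3 and 11.9) than these did from each other (3.55). The epithelial label held: Cdh1 reached 651 to 700 CPM and Epcam 1085 to 1338 CPM in controls. Of the fibroblast markers, 4 of 9 were at or under 3 counts in every library and Lum and Postn were not in the table, with a summed level of 1.08 to 1.44 CPM in controls and 2.06 to 2.45 CPM with Folfiri. The 8 immune cell markers summed to 0.640 to 0.720 CPM in controls and 1.61 to 1.74 CPM with Folfiri, with Tyrobp at no more than 1 count, Laptm5 at no more than 8 and Cd3e not in the table. The 5 endothelial markers summed to 72.2 to 125 CPM and 65.7 to 76.4 CPM, nearly all of it Cdh5, and without Cdh5 to 0.432 to 0.680 CPM and 0.704 to 0.759 CPM.

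Sequences are shown for the promoters of 3 members whose level changed and for E-boxes in promoters of epithelial genes, the kind of letters that SNAI and ZEB proteins bind. The windows are 300 bases long, from RefSeq on GRCm38.p6, and reach from 250 bases before the start used there to 50 after it. That start can differ from the GENCODE gene start, as for Vim, whose window begins inside the gene as positioned below. The letters searched were CACCTG and CAGGTG, which are each other's reverse complement, so a search for both covers both strands. Capitals mark a match. Of the 10 members, 4 had a window (Snai1, Zeb2, Twist1 and Vim), and only Snai1 held a match, against 22.6% of 27025 genes with a window.

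Snai1 promoter, chr2:167537945-167538244, plus strand: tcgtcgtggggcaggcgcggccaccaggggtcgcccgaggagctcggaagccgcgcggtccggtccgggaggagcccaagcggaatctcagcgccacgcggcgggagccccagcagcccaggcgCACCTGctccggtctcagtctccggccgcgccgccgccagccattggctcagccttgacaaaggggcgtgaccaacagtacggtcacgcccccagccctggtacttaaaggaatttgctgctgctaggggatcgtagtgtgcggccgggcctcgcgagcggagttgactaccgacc
Twist1 promoter, chr12:33957421-33957720, plus strand: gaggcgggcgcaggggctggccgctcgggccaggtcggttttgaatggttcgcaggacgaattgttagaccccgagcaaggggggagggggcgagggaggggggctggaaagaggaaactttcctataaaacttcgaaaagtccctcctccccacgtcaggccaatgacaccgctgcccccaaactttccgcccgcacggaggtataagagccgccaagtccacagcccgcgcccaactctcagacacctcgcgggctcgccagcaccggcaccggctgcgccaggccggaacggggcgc
Vim promoter, chr2:13574061-13574360, plus strand: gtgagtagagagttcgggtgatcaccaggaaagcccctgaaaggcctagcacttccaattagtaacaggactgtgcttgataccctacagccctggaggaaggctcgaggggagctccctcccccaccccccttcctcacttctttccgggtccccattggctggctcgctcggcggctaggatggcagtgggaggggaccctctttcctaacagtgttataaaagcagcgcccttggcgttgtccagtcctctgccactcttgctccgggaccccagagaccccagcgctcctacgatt

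Of the 14 epithelial identity markers, 10 had a window, and all 10 held at least 1 match, against 22.6% of all genes with a window. By window the shares were 92.3% and 20.2%. Cdh1, Krt19, St14 and Cdh17 had no window and were not searched. Examples are given from 3 genes that fell with Folfiri (Epcam, Crb3 and Rab25) and 2 that rose (Ocln and Cldn4). Each line is 26 bases long.

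Epcam, chr17:87635782-87635807, plus strand: cagtagggccCACCTGctggaggacc
Epcam, chr17:87635950-87635975, plus strand: ccataaaaccCAGGTGtggaggagaa
Crb3, chr17:57062073-57062098, plus strand: cctgtgcttaCACCTGctcatttccg
Rab25, chr3:88548328-88548353, minus strand: tcgctccaccCACCTGtgccccaggt
Ocln, chr13:100552551-100552576, minus strand: aggggctcggCAGGTGggtcccagcg
Cldn4, chr5:134946933-134946958, minus strand: ttaactgcagCACCTGtggccgccct

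The same letters therefore stood in promoters of genes that changed in both directions. A match is a description of the letters and not of binding, which was not measured.

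Folfiri moved the members in different directions. Of the 8 that passed the filter on low counts, 3 were higher with Folfiri (Snai1, Zeb1 and Zeb2), 4 were lower (Twist1, Vim, Fn1 and Esrp1) and Ovol1 did not pass the threshold of 0.05 on the adjusted p (edgeR quasi-likelihood test with Benjamini-Hochberg adjustment over 14692 genes). Across all genes tested, 79.1% passed it, 40.3% higher and 38.8% lower, so 7 of 8 is close to the background, and Zeb1 and Zeb2 entered the test only through their Folfiri counts. The CPM of the groups did not overlap for these 7 members, against 81.4% of all genes tested. The median log2 fold change of the 8 was -0.35, against 0.021 over all genes tested. It lies between Fn1 (-0.61) and Ovol1 (-0.09), which stood at -0.33 and 0.18 with libraries scaled by total counts only. With that scaling the median over all genes was 0.30. A filter of at least 1 CPM removed Zeb1 and Zeb2 from the 8. Snai2 and Cdh2 lay at the floor, with at most 2 counts in every library, and were not tested. Zeb1 and Zeb2 averaged under 10 counts in controls only. In bulk RNA, fewer cells of a type and less RNA per cell cannot be told apart.

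**Figure D1:**
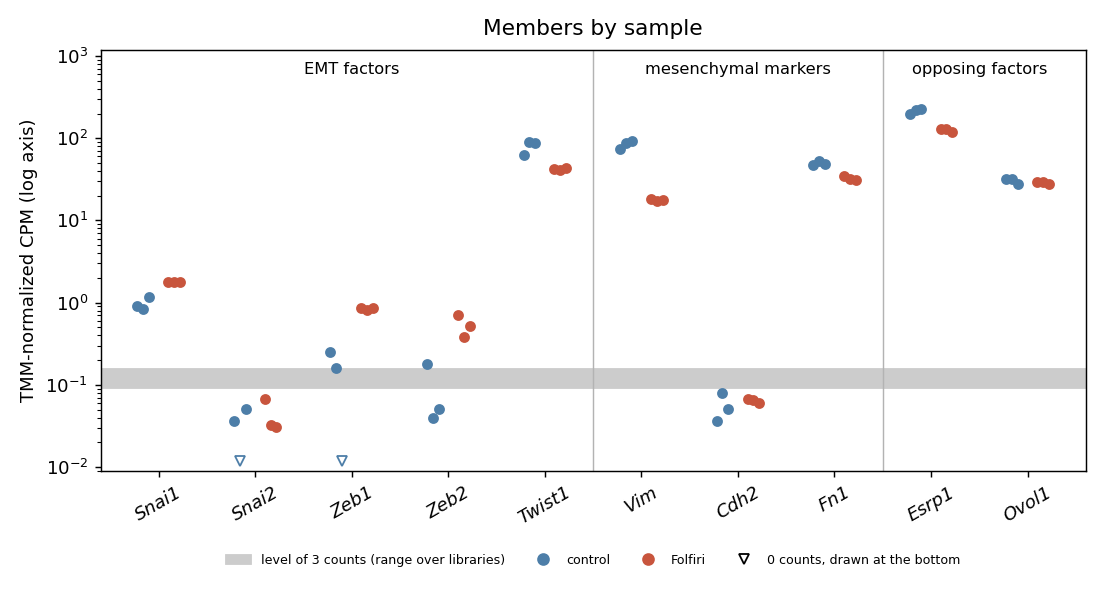
CPM (TMM-normalized, log scale) of each member in the 3 control and 3 Folfiri samples, 1 point per sample with the group mean as a line. Twist1, Vim, Fn1 and Esrp1 sit lower in every Folfiri sample, Snai1, Zeb1 and Zeb2 sit higher, and Ovol1 overlaps.

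Twist1 had the highest level of the 5 EMT factors among the members. Its CPM was 62.9, 91.1 and 87.7 in controls and 41.95, 41.54 and 43.93 with Folfiri. All Folfiri samples lay below all controls, with control replicate 1 the lowest control. The level fell from 80.6 ± 15.4 to 42.5 ± 1.28 CPM (mean ± SD of 3 samples per group), and the log2 fold change was -0.92 (SE 0.12, edgeR adjusted p = 4.86e-05). Without control replicate 1 the log2 fold change was -1.07. Per kilobase of exon, Twist1 was the highest of the 10 genes in both groups, at 49.5 ± 9.44 CPM per kb in controls and 26.1 ± 0.787 with Folfiri. The gene lies on GRCm38 chr12:33957671-33959829 and shares no exon bases with another gene.

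Snai1, which encodes Snail, was expressed at a low level and was higher with Folfiri. Its counts were 25, 21 and 23 in controls and 53, 55 and 58 with Folfiri. The CPM was 0.900, 0.840 and 1.18 in controls and 1.78, 1.78 and 1.76 with Folfiri, and the groups did not overlap. Snai1 lies on GRCm38 chr2:167538195-167542814. The mean rose from 0.974 ± 0.183 to 1.77 ± 0.00954 CPM (mean ± SD of 3 samples per group), and the log2 fold change was 0.88 (SE 0.20, edgeR adjusted p = 0.00206).

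Zeb1 and Zeb2 were close to the detection floor in controls and above it with Folfiri. Zeb1 had 7, 4 and 0 counts in controls and 26, 25 and 28 with Folfiri. Every Folfiri library held more than 3 times the counts of any control library. The summed counts were 11 and 79, a ratio of 5.53 when scaled by TMM-normalized library size (95% exact interval 2.93 to 11.5, counting error only). The fitted log2 fold change was 2.44 (SE 0.46, edgeR adjusted p = 0.000572). Without control replicate 1, which held 7 of the 11 control counts, the log2 fold change was 3.17. Zeb1 passed the filter on low counts only through the Folfiri group.

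Zeb2 had 5, 1 and 1 counts in controls and 21, 12 and 17 with Folfiri, and the groups did not overlap. The summed counts were 7 and 50, a ratio of 5.50 when scaled by TMM-normalized library size (95% exact interval 2.48 to 14.4, counting error only). The fitted log2 fold change was 2.41 (SE 0.51, edgeR adjusted p = 0.00129). Zeb2 too passed the filter only through the Folfiri group. Zeb2 lies on GRCm38 chr2:44983632-45117395 on the minus strand, and 3.30% of its exon bases overlap other annotated genes that are not in the count table. Without control replicate 1, which held 5 of the 7 control counts, the log2 fold change was 3.44. Even with Folfiri, Zeb1 averaged 0.843 ± 0.0330 CPM and Zeb2 0.536 ± 0.159 CPM (SD, n = 3), well under Snai1.

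Snai2, which encodes Slug, was at the floor. Its counts were 1, 0 and 1 in controls and 2, 1 and 1 with Folfiri. The groups overlapped (exact permutation test, two-sided, p = 0.6, smallest possible 0.1), and a difference was not detectable at this depth. Scaled by TMM-normalized library size, the Folfiri-to-control ratio of its summed counts was 1.54 with a 95% exact interval from 0.221 to 17.03.

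**Figure D2:**
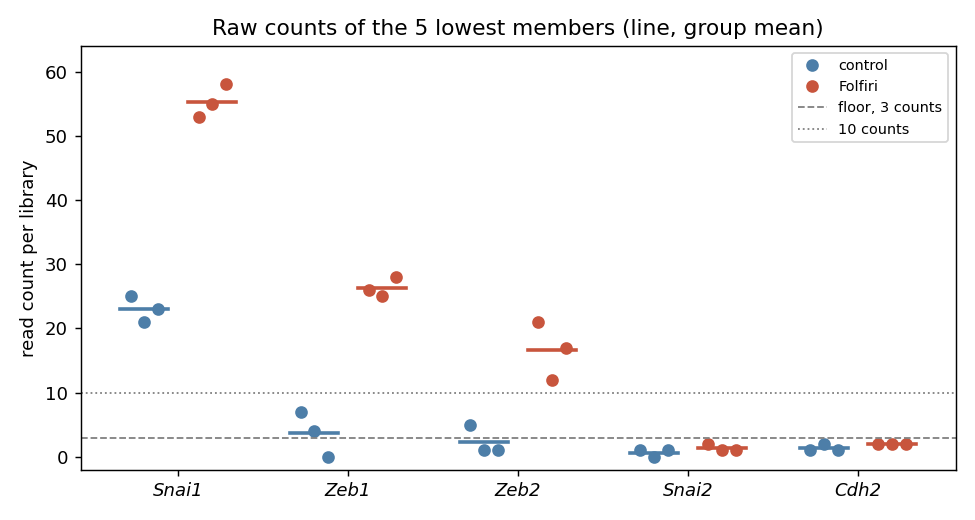
Raw counts of Snai1, Snai2, Zeb1, Zeb2 and Cdh2 in each sample, with the floor of 3 counts marked. Snai2 and Cdh2 never exceed 2 counts, Zeb1 and Zeb2 reach 12 to 28 counts in the Folfiri samples and at most 7 in controls, and Snai1 holds 21 to 58 in all 6.

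Among the mesenchymal markers that could be tested, Vim had the largest absolute log2 fold change. The intermediate filament gene stood at 73.5, 88.0 and 91.5 CPM in controls and at 18.38, 17.01 and 17.78 CPM with Folfiri. Every Folfiri sample lay far below every control. The mean went from 84.3 ± 9.51 to 17.7 ± 0.686 CPM (mean ± SD of 3 samples per group), 4.75-fold lower, and the log2 fold change was -2.25 (SE 0.10, edgeR adjusted p = 1.59e-08). Vim lies on GRCm38 chr2:13573927-13582826 and shares no exon bases with another gene. Of all genes tested, 8.37% had a larger absolute log2 fold change.

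Fn1, which encodes a matrix glycoprotein, fell less. It stood at 47.2, 52.4 and 49.3 CPM in controls and at 34.4, 32.4 and 31.0 CPM with Folfiri, without overlap. The mean went from 49.6 ± 2.65 to 32.6 ± 1.72 CPM (mean ± SD of 3 samples per group), and the log2 fold change was -0.61 (SE 0.08, edgeR adjusted p = 3.93e-05). Fn1 lies on GRCm38 chr1:71585520-71653200 on the minus strand. Exons of Apol7d on the opposite strand overlap 2.499% of its exon bases, and that gene had 4 to 11 counts. Cdh2, the third marker, was at the floor with 1, 2 and 1 counts in controls and 2, 2 and 2 with Folfiri (exact permutation test, two-sided, p = 0.6). No N-cadherin difference was detectable at this depth.

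Of the opposing factors, Esrp1 was the member with the highest CPM and fell with Folfiri, from 196, 224 and 227 CPM in controls to 128, 128 and 119 CPM. The groups did not overlap, and Esrp1 lies on GRCm38 chr4:11331933-11386783 on the minus strand. The mean went from 215.4 ± 16.98 to 125 ± 5.42 CPM (mean ± SD of 3 samples per group), and the log2 fold change was -0.78 (SE 0.08, edgeR adjusted p = 4.91e-06).

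Ovol1 stood at 31.8, 31.7 and 27.8 CPM in controls and 29.1, 29.0 and 27.9 CPM with Folfiri, and the groups overlapped. Its log2 fold change was -0.09 (95% interval -0.27 to 0.09, edgeR adjusted p = 0.338), and the sign turned to 0.18 when libraries were scaled by total counts only. The library kit does not mark strand, and 22.0% of the exon bases of Ovol1 overlap exons of Gm31166 or AC126029.1 on the other strand. Gm31166 had 1 to 12 counts. Ovol1 itself lies on GRCm38 chr19:5549136-5560646 on the minus strand.

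**Figure D3:**
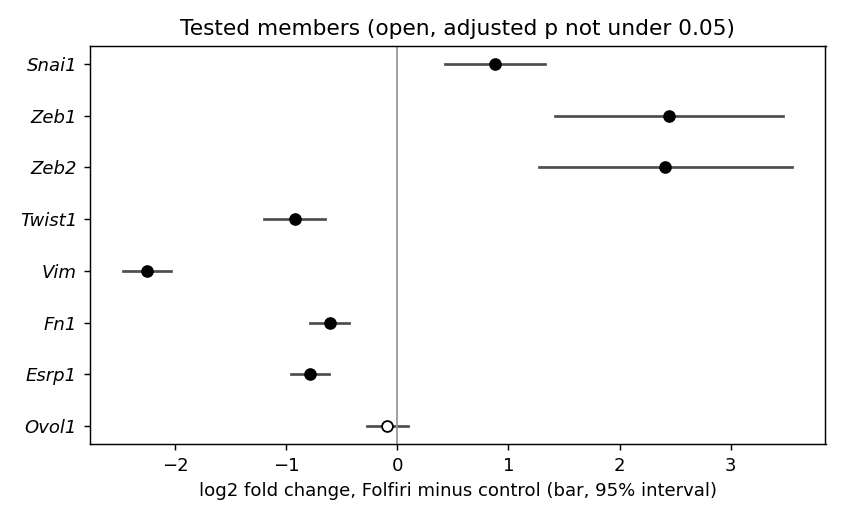
Log2 fold change (Folfiri minus control) of the 8 members tested, with 95% intervals from the edgeR fit. Zeb1, Zeb2 and Snai1 lie above 0, Ovol1 includes 0, and Fn1, Esrp1, Twist1 and Vim lie below it, with Vim lowest at -2.25.

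In controls the order per kilobase of exon was Twist1, Esrp1 (34.2 ± 2.69 CPM per kb), Vim (17.8 ± 2.01), Ovol1 (8.73 ± 0.652), Fn1 (4.25 ± 0.226) and Snai1 (0.601 ± 0.113). Snai2, Zeb1, Cdh2 and Zeb2 followed, all under 0.02 CPM per kb, and each overlapped its neighbour in that order. With Folfiri, Ovol1 (8.21 ± 0.190 CPM per kb) stood above Vim (3.74 ± 0.145) and Fn1 (2.79 ± 0.148), and Zeb1 (0.0821 ± 0.00322) stood above Zeb2 (0.0269 ± 0.00799), which overlapped Snai2 (0.0214 ± 0.0102).

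Ratios of counts within a sample do not depend on library scaling. They were chosen after the values were seen, and the exact two-sided permutation p of each was 0.1, the smallest that 3 against 3 allows. The ratio of Vim to Cdh1 (E-cadherin) was 0.113, 0.126 and 0.133 in controls and 0.0233, 0.0205 and 0.0241 with Folfiri. The ratio of Vim to Fn1 was 1.56, 1.68 and 1.86 in controls and 0.534, 0.525 and 0.574 with Folfiri, so these markers fell to different degrees. The ratio of Ovol1 to Esrp1 rose from 0.162, 0.142 and 0.123 to 0.226, 0.227 and 0.235. Each of these ratios separated the groups, and relative to Cdh1 the log2 ratio fell by 1.11 for Twist1, by 0.99 for Esrp1 and by 0.82 for Fn1.

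**Figure D4:**
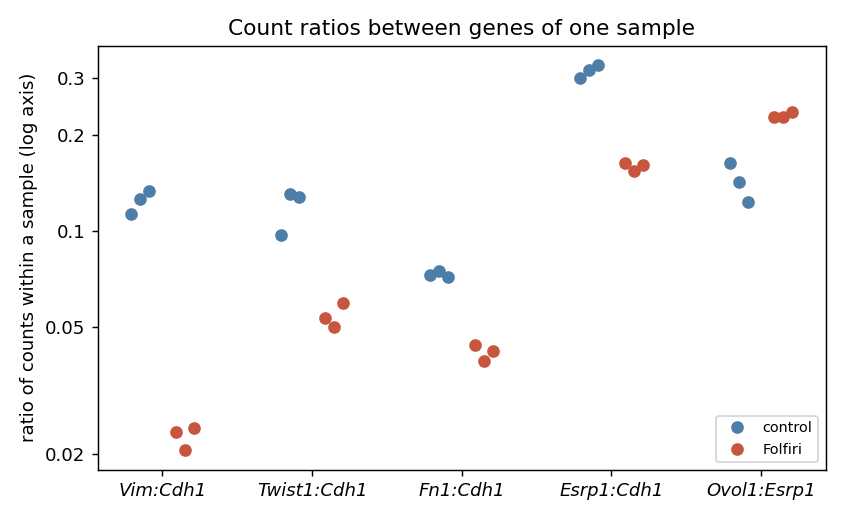
Ratios of raw counts within each sample (log scale) for Vim, Twist1, Fn1 and Esrp1 over Cdh1 and for Ovol1 over Esrp1, 1 point per sample. In each pair the 3 control points and the 3 Folfiri points do not overlap, and Ovol1 over Esrp1 is the pair that is higher with Folfiri.

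The other genes of the program changed in both directions. Lists were taken from textbook knowledge and, for part of the partial EMT genes, from the study. Among 10 other EMT transcription factors, 6 could be tested, of which 2 were higher, 2 lower and 2 did not pass the threshold (median log2 fold change -0.18, against 0.021 and 79.1% past the threshold over all genes tested). The sign of that median was not stable: it was 0.10 with total counts only, where the median over all genes was 0.30, and 0.30 with a filter of at least 1 CPM. Snai3, a relative of Snail, rose from 1.46 ± 0.227 to 3.18 ± 0.668 CPM (log2 fold change 1.12, edgeR adjusted p = 0.000640). Tcf3, which encodes the E-box binding E2A proteins, rose from 58.0 ± 5.94 to 98.6 ± 1.80 CPM (0.76 on the log2 scale, edgeR adjusted p = 8.94e-06). Foxc2, a forkhead factor gene, had 14, 12 and 12 counts in controls and 3, 2 and 7 with Folfiri, and it entered the test only through the controls. Its log2 fold change was -2.01, and -2.61 without Folfiri replicate 3, and a filter of at least 1 CPM removed it. Tcf4 fell from 197 ± 8.89 to 138 ± 23.0 CPM (edgeR adjusted p = 0.00149), a call that was lost when libraries were scaled by total counts only (adjusted p = 0.104). Twist2 and Gsc were not in the count table.

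Of the 14 other mesenchymal markers, 5 could be tested and 4 of them were higher, none was lower, and the median log2 fold change was 1.27. Of all genes tested, 40.3% were higher and 79.1% passed in either direction. S100a4 was among the 4 and averaged under 10 counts in controls (7, 4 and 4), so it entered the test through its Folfiri counts of 18, 22 and 33. Itga5, the fibronectin receptor subunit, rose from 4.16 ± 0.0443 to 11.5 ± 1.09 CPM, and Cdh11, another cadherin of mesenchymal cells, from 0.659 ± 0.192 to 1.55 ± 0.236 CPM. Loxl2, a lysyl oxidase, rose from 0.641 ± 0.183 to 1.24 ± 0.285 CPM (SD, n = 3 each), and the edgeR adjusted p of these 3 was at most 0.0103. S100a4, a calcium-binding protein gene, was at 0.206 ± 0.0461 CPM in controls and 0.772 ± 0.206 CPM with Folfiri. Only Itga5 reached 1 CPM in controls, and 3 of the 14 did with Folfiri. With Folfiri, Itga5 stood at 2.34 ± 0.220 CPM per kb, against 2.79 ± 0.148 for Fn1 and 3.74 ± 0.145 for Vim. The fibroblast marker Dcn held 2, 0 and 0 counts in controls and 19, 26 and 20 with Folfiri, Pdgfra held 11, 7 and 10 and then 40, 31 and 36, and Col1a1 held 17, 26 and 17 and then 11, 9 and 8. Col1a2 and Col3a1 stayed at no more than 2 counts in every library. The immune cell marker Ptprc held 13, 9 and 7 counts in controls and 33, 35 and 31 with Folfiri. Dcn, Pdgfra, Col1a1 and Ptprc each averaged under 10 counts in 1 group, and whether they could be tested rested largely on the other. The part of such cells in the low counts of Zeb1, Zeb2 and these markers was not tested.

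Of 11 partial EMT genes tested, 6 were higher and 5 lower, with a median log2 fold change of 0.30, beside 40.3% higher and 38.8% lower over all genes tested. Inhba and Mmp10, among the 6, entered the test only through their Folfiri counts. Plaur, the urokinase receptor, rose from 36.3 ± 0.868 to 70.5 ± 2.86 CPM (0.96 on the log2 scale, edgeR adjusted p = 6.36e-07). Lama3, a laminin chain, fell from 41.7 ± 1.71 to 13.3 ± 2.25 CPM (edgeR adjusted p = 3.85e-07), and P4ha2, a collagen prolyl hydroxylase, from 115 ± 14.3 to 29.95 ± 1.77 CPM. Inhba, which encodes an activin subunit, had 13, 6 and 0 counts in controls and 68, 94 and 62 with Folfiri. Mmp10, a matrix metalloproteinase, had 0, 5 and 0 counts and 45, 33 and 63. Inhba and Mmp10 were near the floor in controls. Their fitted log2 fold changes of 3.18 and 4.35 became 4.11 for Inhba without control replicate 1 and 8.40 for Mmp10 without control replicate 2, where the remaining controls were at 0 and the value depends on the prior count. Tgfbi rose from 2.82 ± 0.482 to 4.31 ± 0.297 CPM, and Lamb3 fell from 156 ± 18.2 to 120 ± 2.68 CPM in a call lost with total counts (adjusted p = 0.196, edgeR).

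Of the 9 other opposing factors, 2 were higher and 5 lower, with a median log2 fold change of -0.26, and the 7 past the threshold are close to the 79.1% over all genes tested. With total counts only the sign of this median turned, to 0.013. The grainyhead factor gene Grhl1 rose from 6.64 ± 1.36 to 23.3 ± 0.371 CPM and Ovol2 from 3.39 ± 0.701 to 9.70 ± 0.957 CPM, while Grhl3 fell from 59.3 ± 4.54 to 24.3 ± 0.721 CPM (SD, n = 3 each). Elf3, an epithelial ETS factor, fell from 508 ± 94.3 to 205 ± 6.02 CPM, and Klf5 and Klf4 had log2 fold changes of -0.66 and -0.51 (edgeR adjusted p of at most 0.000190 for these 6). Ovol2, a relative of Ovol1, passed the threshold where Ovol1 did not, and the difference between them was not tested. Esrp2, the paralog of Esrp1, had a log2 fold change of 0.01 (95% interval -0.27 to 0.29, edgeR adjusted p = 0.953).

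Of the 14 epithelial identity markers, 10 were lower, 3 higher and 1 did not pass the threshold, with a median log2 fold change of -0.66. Over all genes tested 38.8% were lower and 40.3% higher. Epcam fell from 1252 ± 145 to 653 ± 14.4 CPM, Crb3 from 130 ± 21.4 to 63.1 ± 3.95 CPM, Rab25 from 171 ± 15.8 to 89.1 ± 5.23 CPM and Cdh17 from 706 ± 51.6 to 354 ± 13.6 CPM. The tight junction genes Ocln and Cldn4 rose, from 37.4 ± 0.979 to 95.9 ± 6.59 CPM and from 189 ± 16.3 to 308 ± 28.2 CPM, and the edgeR adjusted p of these 6 genes was at most 3.39e-05. Cdh1, the classical target of SNAI and ZEB repressors, was at 679 ± 25.8 CPM in controls and 786 ± 45.7 CPM with Folfiri (log2 fold change 0.21, edgeR adjusted p = 0.0350), a call lost with no filter, with the replicate block, and without control replicate 2 (adjusted p = 0.0698), control replicate 3 (0.0912), Folfiri replicate 1 (0.0946) or Folfiri replicate 2 (0.150). Cdh5, the endothelial cadherin, had 3448, 1836 and 1396 counts in controls and 2124, 2346 and 2139 with Folfiri (log2 fold change -0.35, edgeR adjusted p = 0.0967), with control replicate 1 far above the rest. Without that sample its log2 fold change was -0.04, and without control replicate 2 or 3, with no filter (adjusted p = 0.00787) or with the replicate block it passed the threshold. Pecam1, an endothelial adhesion molecule gene, had a log2 fold change of -0.04 (edgeR adjusted p = 0.919), and 0.25 without control replicate 2.

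**Figure D5:**
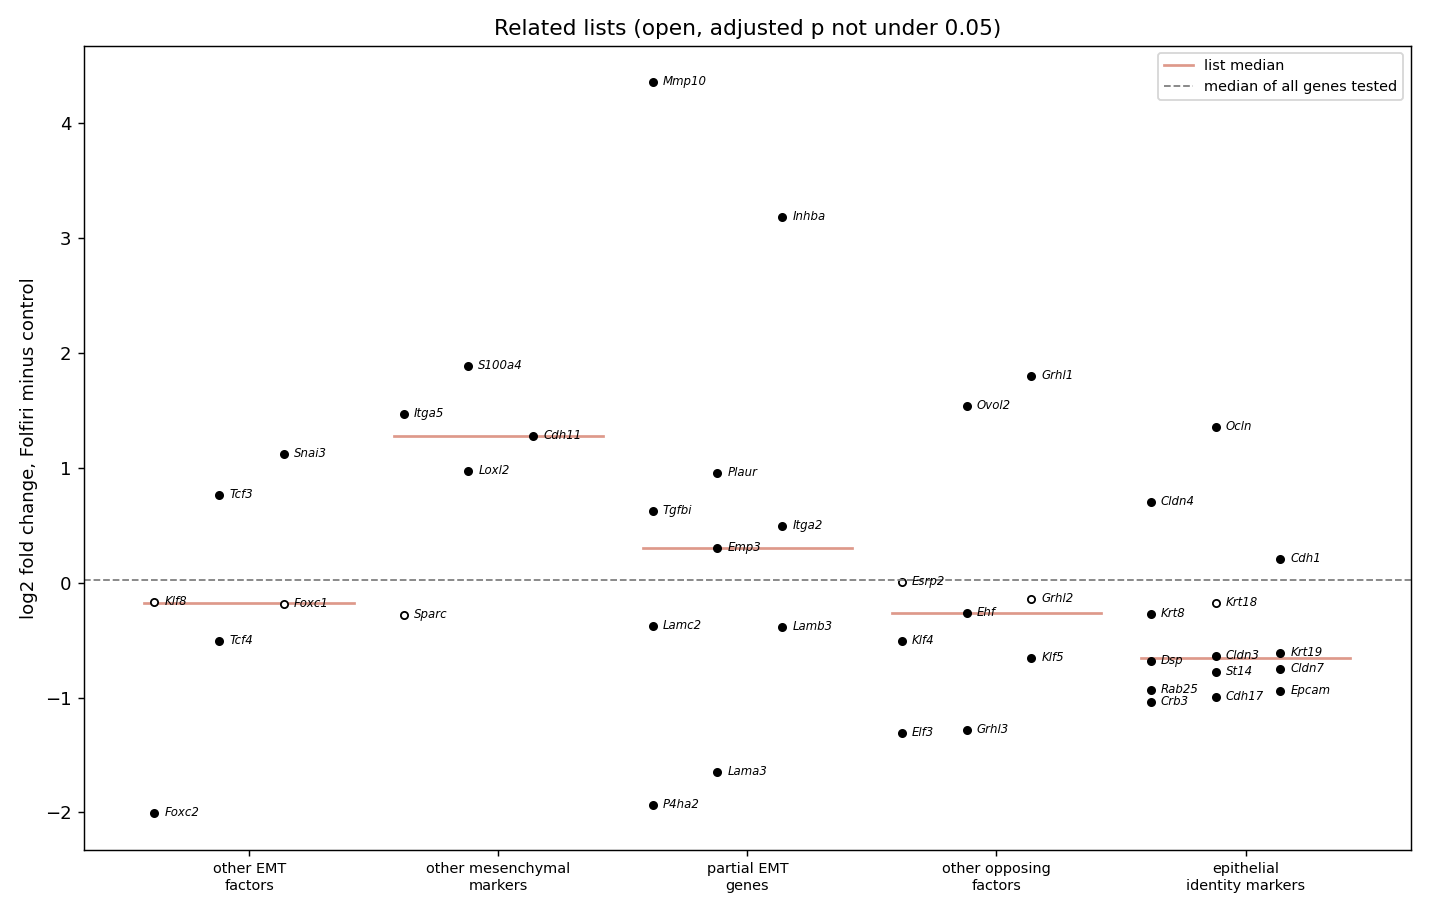
Log2 fold change (Folfiri minus control) of tested genes in 5 related lists (1 tested partial EMT gene is not drawn), filled where the edgeR adjusted p was under 0.05, with the list median and the median of all genes tested (0.021) as lines. The mesenchymal markers other than Vim and Fn1 lie mostly above 0, the epithelial identity markers mostly below it, and the other lists on both sides.

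In each role, the member with the highest CPM averaged over both groups was taken. With Folfiri alone, Fn1 stood above Vim (32.6 against 17.7 CPM). The genes most like each of these leading members over the 6 samples were found among the 9470 genes whose mean level reached 10 CPM. The measure was Pearson's correlation of log2 CPM. Aurka, a mitotic kinase gene, was most like Twist1 (0.9997), followed by Reep4 and Hnrnpa1l2-ps2. Snx5 was most like Vim, followed by Adm and Zfand6, and Diaph1 was most like Esrp1, followed by Top2a and Gm4835. The samples share 1 treatment contrast, and 1893, 2910 and 2775 genes had a correlation above 0.95 with Twist1, Vim and Esrp1, so these are descriptions of 6 points.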

How the data were processed

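The authors aligned the poly(A)-selected reads with STAR 2.5.2 to GRCm38 (mm10) with GENCODE vM25 genes, counted them with Rsubread and deposited raw counts per gene without normalization. The strand setting and the treatment of multi-mapping reads are not given in the sources used here. Symbols, positions and exon lengths came from GENCODE vM21 on the same build, which named 24168 of 24190 identifiers. Those deposited counts went into edgeR 4.0.16 (R 4.3.3) with filterByExpr, TMM and the quasi-likelihood test over all 6 samples. P-values were adjusted by Benjamini-Hochberg and called under 0.05. CPM is TMM-normalized. A gene was at the floor with at most 3 counts in every library. Libraries held 22103591 to 30098210 counts, and exact intervals of summed counts cover counting error only, while intervals of fold changes come from the edgeR standard errors. The fit was first tested on simulated data. Alternatives were other scalings, filters, DESeq2 1.42.0, a replicate block and leaving out each sample. The members and lists were chosen with earlier results of these data known. Genes named were all 10 members, up to 4 per direction in each related list (ranked by absolute fold change among called genes whose groups did not overlap), or else up to 2 with the highest level, defining cell type markers, and the 3 genes most like the leading member of each role. Esrp2, and genes absent from the table, were named after the values were seen. A gene that this rule names and a detail of the genotype are not reported here. The labels do not say whether replicate numbers pair the samples. Deviations from the group means correlated at 0.0267, -0.117 and 0.0393 between same-numbered samples. Between differently numbered samples they correlated at -0.118 to 0.12. With 3 samples per group these values cannot decide whether the samples were paired.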

Additional observations from a re-analysis of the deposited data

How the results depend on the processing

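Of 110 alternative values for the 8 tested members, 109 kept their direction and their side of the threshold, and Ovol1 turned to 0.18 with total counts only. The members past the threshold numbered 7 in every alternative except a filter of at least 1 CPM, which removed Zeb1 and Zeb2 and left 5. Leaving out 1 sample at a time gave 7 to 7 members and 11021 to 12312 genes past the threshold (11623 as reported), and log2 fold changes of 1.99 to 3.17 for Zeb1 and 2.03 to 3.44 for Zeb2. Other settings gave 10630 genes (filter of at least 1 CPM) to 12742 (no filter), 11758 with DESeq2 and 11572 with total counts only, where 63.3% of called genes were higher against 51.0% as reported. The same scaling moved the median over all genes from 0.021 to 0.30 and the list medians to 0.10 (other EMT factors), 0.013 (other opposing factors), -0.38 (epithelial identity), 1.54 (other mesenchymal markers) and 0.58 (partial EMT). With upper-quartile scaling the medians were 0.076 over all genes and -0.21 for other opposing factors. With no filter they were 0.27 over all genes, 1.54 for other mesenchymal markers and 0.37 for partial EMT, and with DESeq2 they were 0.30, 1.65 and 0.39. The filter of at least 1 CPM gave 0.30 for other EMT factors. Leaving out 1 sample at a time gave medians of -0.34 to -0.020 for other EMT factors, -0.30 to -0.20 for other opposing factors, -0.68 to -0.64 for epithelial identity, 1.03 to 1.35 for other mesenchymal markers, 0.26 to 0.35 for partial EMT and 0.017 to 0.044 over all genes. Pecam1 turned to 0.23 with total counts only, 0.016 with upper-quartile scaling and, leaving out 1 sample at a time, ranged from -0.23 to 0.25 (without control replicate 2). The cause was not tested. With the replicate number as a block, 11499 genes and 7 members passed; among the named genes Cdh1 lost its call (adjusted p = 0.0670, edgeR) and Cdh5 passed, as it did with no filter. The labels do not say that the replicate numbers pair samples, so this fit says nothing of pairing. Counts of 3 or fewer limit Snai2 and Cdh2, and a change there was not detectable.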
